A study of Mus musculus with 9 samples.

Results

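WNT proteins are secreted, lipid-modified signals that bind Frizzled receptors, either with the co-receptors LRP5 and LRP6, which stabilises beta-catenin, or with ROR and RYK receptors, which act without it. Secreted modulators set how much ligand reaches the receptors: R-spondins amplify the signal, while the secreted Frizzled-related proteins, WIF1 and most Dickkopf proteins restrain it. In the thymus WNT ligands are made by epithelium and mesenchyme, and WNT4 is known for supporting Foxn1 in thymic epithelium. The genes described here are 10 of the 18193 genes that had a probe set annotated to exactly 1 gene symbol: the ligand genes Wnt4, Wnt5a and Wnt5b, the R-spondin gene Rspo3, the inhibitor genes Sfrp1, Sfrp2, Sfrp4, Dkk3 and Wif1, and Axin2. They were listed by symbol, with earlier results of these data known, and were read by 22 probe sets. Axin2 is not secreted; it encodes an intracellular scaffold that restrains beta-catenin and is itself switched on by beta-catenin signalling, so it is read as a target gene.

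RNA came from a thymus cell fraction depleted of CD45-positive (blood-derived) cells on magnetic beads. All mice were female C57BL/6J aged 6 to 8 weeks, and the groups were untreated mice and mice taken on day 4 or day 7 after SL-TBI, usually read as sublethal total body irradiation, at 550 cGy from a cesium source without hematopoietic rescue. Each group had 3 samples on 1 Affymetrix mouse expression array each. Several mice were pooled for a sample, and the labels call the pooled cells both stromal cells and ECs; nothing says that the pools of a group were independent, so p-values measure the spread between these samples, which may be technical.

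Expression is given in log2 units, and a value of at least 4 was taken as detected. Between 42.1% and 44.2% of the probe sets of an array reached that level. The fraction was a mixture: averaged over its tested genes, the thymocyte list read 9.51 in untreated, 3.49 at day 4 and 6.91 at day 7, and 8 of its 12 genes with a probe set were below the detection level on all day 4 arrays. The mean of the 13 general epithelial markers lay between 9.76 and 10.37 on untreated arrays, between 10.27 and 10.43 at day 4 and between 9.91 and 10.05 at day 7. Array means of the 13 fibroblast markers spanned 9.84 to 10.40 before irradiation, then 11.20 to 11.76 (day 4) and 10.81 to 11.15 (day 7), with 0 markers below the detection level in any group. The endothelial list read 4.26 to 5.96, 5.29 to 6.06 and 7.50 to 7.60 in the same order, with untreated replicate 3 the highest of its group. In such bulk samples, more cells of a type and more RNA per cell cannot be told apart.

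Promoter sequence was available in the RefSeq table (build GRCm38.p6) for 5 of the 10 genes, and 3 stretches of 250 bases before a transcription start are shown. Axin2 is shown as the classical target of the pathway, Sfrp2 as the gene with the largest rise, and Wnt5b for the single motif match among the 7 stretches of these genes. They were searched on both strands for the TCF/LEF binding motif, the sequence through which beta-catenin acts, written as CTTTGAA. The related forms CTTTGAT and, with the same start, CTTTGTA were also searched, as was CTTTGTT, and capitals mark a match. The sequences run 5′ to 3′ on the strand of the gene, from chr11:108920099-108920348 (+) for Axin2, chr3:83766071-83766320 (+) for Sfrp2 and chr6:119449387-119449636 (-) for Wnt5b.
Axin2: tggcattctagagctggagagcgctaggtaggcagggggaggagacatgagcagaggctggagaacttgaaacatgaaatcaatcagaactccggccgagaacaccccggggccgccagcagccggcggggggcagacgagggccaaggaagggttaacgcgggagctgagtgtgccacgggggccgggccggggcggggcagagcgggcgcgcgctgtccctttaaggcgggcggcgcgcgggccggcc
Sfrp2: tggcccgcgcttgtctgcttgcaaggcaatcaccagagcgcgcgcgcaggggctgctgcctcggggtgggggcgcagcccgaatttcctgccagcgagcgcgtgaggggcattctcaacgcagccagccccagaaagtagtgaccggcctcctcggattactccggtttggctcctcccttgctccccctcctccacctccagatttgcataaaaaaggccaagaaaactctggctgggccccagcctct
Wnt5b: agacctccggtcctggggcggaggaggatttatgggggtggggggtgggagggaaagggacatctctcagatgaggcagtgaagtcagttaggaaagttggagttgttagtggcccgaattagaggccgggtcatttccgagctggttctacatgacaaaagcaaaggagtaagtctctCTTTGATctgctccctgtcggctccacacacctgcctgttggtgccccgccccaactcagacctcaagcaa
The Wnt5b match lay 71 to 65 bases before 1 of its 3 annotated starts. Of 32817 promoter stretches of this length in the table, 14.8% held a match. The Axin2 and Sfrp2 stretches had none, which says only that these letters are not in these windows. Both were rich in G and C, at 69.2% and 63.6% against a median of 52.4% over all stretches, and the Axin2 stretch held 24 CG pairs against a median of 6.

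After irradiation 9 of the 10 genes could be tested, and all 9 rose at day 4. Relative to fibroblast markers, however, 3 were higher and 2 lower, where 1.82% and 79.9% of all genes were. On the deposited scale the largest fitted differences at day 4 were those of Sfrp2, Rspo3 and Dkk3, and the smallest that of Sfrp1. At day 7, 7 of the 9 were still called higher than untreated, while Sfrp1 and Sfrp4 were not. Of all 10937 genes tested, 41.8% were called higher and 21.4% lower at day 4 (63.2% either way), and 32.1% higher and 22% lower at day 7 (54.1% either way). The irradiated arrays lay above all untreated arrays for 9 of the 9 genes at day 4 and 8 at day 7, where this held for 44.7% and 37.5% of all genes, and below for 0, where it held for 22.9% and 24.9%. The median difference of the 9 genes was 1.45 at day 4 and 1.31 at day 7, beside 0.20 and 0.09 over all genes tested. Rspo3 and Wnt5b were below the detection level on all untreated arrays and passed the filter only through irradiated arrays, so a count over the tested genes is a description. With these 2 genes at their bounds the medians were 1.45 and 0.91. Because the genes were chosen with earlier results of these data known, the counts and medians describe this list only. The comparisons with untreated share the same untreated arrays.

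**Figure D1:**
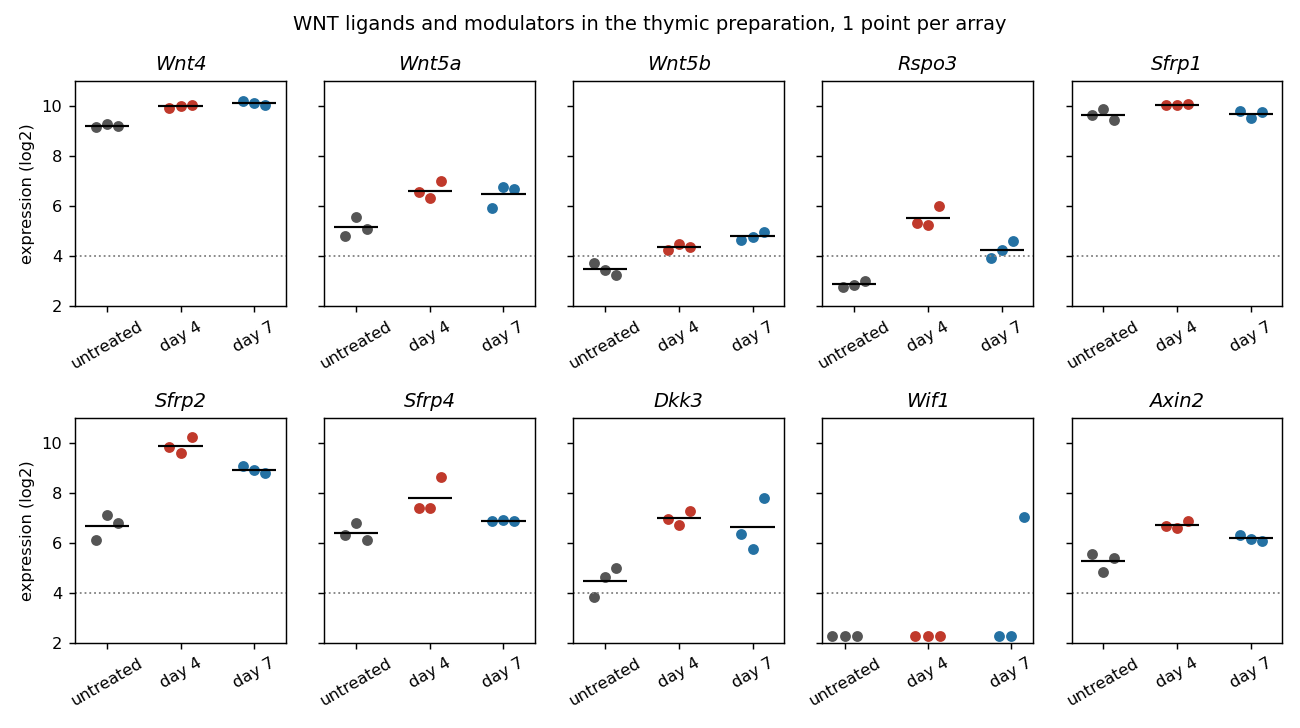
Log2 expression of the 10 genes (vertical axis) in untreated, day 4 and day 7 samples, 1 point per array with the group mean as a bar (none for Wif1), for the probe set with the highest mean; the dotted line is the detection level of 4. Day 4 points lie above all untreated points for every gene except Wif1, which left the lowest value on 1 day 7 array only.

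The ligand gene Wnt4 rose on both days, with little spread between arrays (SD 0.05 to 0.07, n = 3 in each group). Wnt4 read 9.15, 9.29 and 9.21 in untreated, 9.94, 10.01 and 10.03 at day 4, and 10.19, 10.14 and 10.05 at day 7. All irradiated arrays lay above all untreated arrays. It rose 1.71-fold at day 4 (difference 0.78, SE 0.08, adjusted p 5.5e-05 by limma) and stood 1.88-fold above untreated at day 7 (0.91, SE 0.08, adjusted p 6.1e-05). Day 7 did not differ from day 4 past the threshold (0.13, 95% interval -0.05 to 0.32, adjusted p 0.262). The second Wnt4 probe set rose by 1.14 at day 4 and 1.04 at day 7 (2.20-fold and 2.06-fold, adjusted p 1.95e-05 and 7.61e-05), so both readings of the gene rose.

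Wnt5a, a ligand that signals largely through ROR receptors, rose and stayed up. Wnt5a read 4.81, 5.59 and 5.08 in untreated, 6.55, 6.32 and 7.00 at day 4, and 5.95, 6.76 and 6.71 at day 7. No irradiated array reached down to the untreated range, and the day 4 and day 7 ranges overlapped. The difference was 1.46 at day 4 (SE 0.28, 2.76-fold, adjusted p 0.00159) and 1.31 at day 7 (SE 0.28, 2.49-fold, adjusted p 0.00383). Of its 4 probe sets, 1436791_at and 1448818_at passed the filter. The latter was below the detection level on all untreated arrays and was at least 2.32-fold higher at day 4 (adjusted p 9.4e-05). A further one, 1437673_at, reached the level only at 4.01 and 5.47 on day 4 arrays, and 1456976_at stayed near the lowest value of the table, at 2.27 to 2.28.

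Wnt5b, the closest relative of Wnt5a, was higher on both days. Its readings were 3.75, 3.46 and 3.25 in untreated, 4.26, 4.51 and 4.39 at day 4, and 4.65, 4.79 and 4.98 at day 7, so that the 3 groups did not overlap. Because untreated arrays were below the detection level, the rise is given as at least 1.31-fold at day 4 and at least 1.75-fold at day 7 (differences 0.90 and 1.32, SE 0.14 each, adjusted p 5.8e-04 and 1.4e-04). The step from day 4 to day 7 was 0.42 (95% interval 0.10 to 0.75, adjusted p 0.058). It was called without untreated replicate 1 (adjusted p 0.038) or 3 (0.034), arrays that enter only the shared spread. This reading comes from an _x_at probe set, a type whose probes can also match other sequences, and the other Wnt5b probe set was below 4 on all arrays.

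Rspo3 encodes an R-spondin, which binds LGR receptors and removes the ZNRF3 and RNF43 ligases that clear Frizzled from the cell surface. Rspo3 read 2.79, 2.85 and 3.01 in untreated, 5.34, 5.26 and 6.03 at day 4, and 3.95, 4.24 and 4.59 at day 7. The 3 groups did not overlap: untreated was lowest and day 4 highest. It rose at least 2.92-fold at day 4 (difference 2.66, SE 0.22, adjusted p 1.5e-05) and was at least 1.198-fold above untreated at day 7 (1.38, SE 0.22, adjusted p 9.3e-04). From day 4 to day 7 it fell 2.43-fold (difference -1.28, SE 0.22, adjusted p 0.00398), a call kept when each array was left out in turn (adjusted p 0.00443 to 0.0187). Its second probe set stayed at the lowest value of 2.27 on all arrays.

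Among the inhibitors, Sfrp2, whose protein carries a Frizzled-like domain that binds WNT ligands, had the largest fitted difference of the 9 tested genes. Sfrp2 read 6.11, 7.11 and 6.78 in untreated, 9.84, 9.59 and 10.22 at day 4, and 9.07, 8.89 and 8.78 at day 7. Every day 4 array was above every day 7 array, and every day 7 array above every untreated one. It rose 9.28-fold at day 4 (difference 3.21, SE 0.25, adjusted p 9.8e-06), rank 10 of 10937 by difference, and was 4.75-fold above untreated at day 7 (2.25, SE 0.25, adjusted p 1.5e-04). The fall from day 4 to day 7 was 1.95-fold (-0.97, SE 0.25, adjusted p 0.0211). It missed the threshold when day 4 replicate 1 (-0.99, adjusted p 0.053) or 3 (-0.80, 0.066) was dropped, when day 7 replicate 2 (-0.955, 0.066) or 3 (-0.90, 0.067) was dropped, and when dim genes were not filtered (-0.97, 0.077). Relative to epithelial and fibroblast markers it was -0.61 and -0.53 (adjusted p 0.107 and 0.170).

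Sfrp4, a gene of the same inhibitor family, passed the threshold against untreated at day 4 and not at day 7. Sfrp4 read 6.31, 6.81 and 6.12 in untreated, 7.40, 7.39 and 8.63 at day 4, and 6.88, 6.92 and 6.88 at day 7. Day 4 replicate 3 stood well above the other day 4 arrays, and the day 7 arrays lay close together (SD 0.02, n = 3), just above the untreated range. The rise at day 4 was 2.62-fold (difference 1.39, SE 0.32, adjusted p 0.00426; 0.98 without day 4 replicate 3). At day 7 the difference from untreated was 0.48 (95% interval -0.24 to 1.19, adjusted p 0.230), and it was called without day 4 replicate 3 (0.48, adjusted p 0.041), an array that enters only the shared spread. The day 7 minus day 4 difference of -0.92 had an adjusted p of 0.060, and it was -0.51 without day 4 replicate 3 (adjusted p 0.087).

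Sfrp1, another Frizzled-related inhibitor, had 5 probe sets that disagreed. The one with the highest mean, 1428136_at, read 9.64, 9.88 and 9.44 in untreated, 10.03, 10.04 and 10.10 at day 4, and 9.82, 9.53 and 9.75 at day 7. Day 4 arrays lay just above both other groups, which overlapped. The difference was 0.40 at day 4 (SE 0.13, adjusted p 0.0208) and 0.05 at day 7 (95% interval -0.24 to 0.34, adjusted p 0.768). Leaving out untreated replicate 1 ended the day 4 call (0.40, adjusted p 0.054), as did leaving out untreated replicate 3 (0.29, 0.062) or day 4 replicate 3 (0.38, 0.059).

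In the fit of every probe set, 4 Sfrp1 probe sets rose at day 4 and 1 did not. The differences at day 4 were 1.24 for 1416594_at, 1.08 for 1448395_at, 0.63 for 1438620_x_at, 0.40 for 1428136_at and -0.03 for 1460187_at (95% interval -0.39 to 0.33). The probe sets 1416594_at, 1448395_at and 1460187_at are annotated to the same source sequence and include the highest and the lowest of these differences. At day 7 the differences were 0.47, 0.89, 0.53, 0.05 and 0.20 in that order, and the first 3 were called. From day 4 to day 7, 1416594_at fell by 0.78 (adjusted p 0.0123). The mean of all 5 called Sfrp1 higher at day 7 (0.43, adjusted p 0.00378), so the size of the Sfrp1 change rests on which probe set is read.

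**Figure D2:**
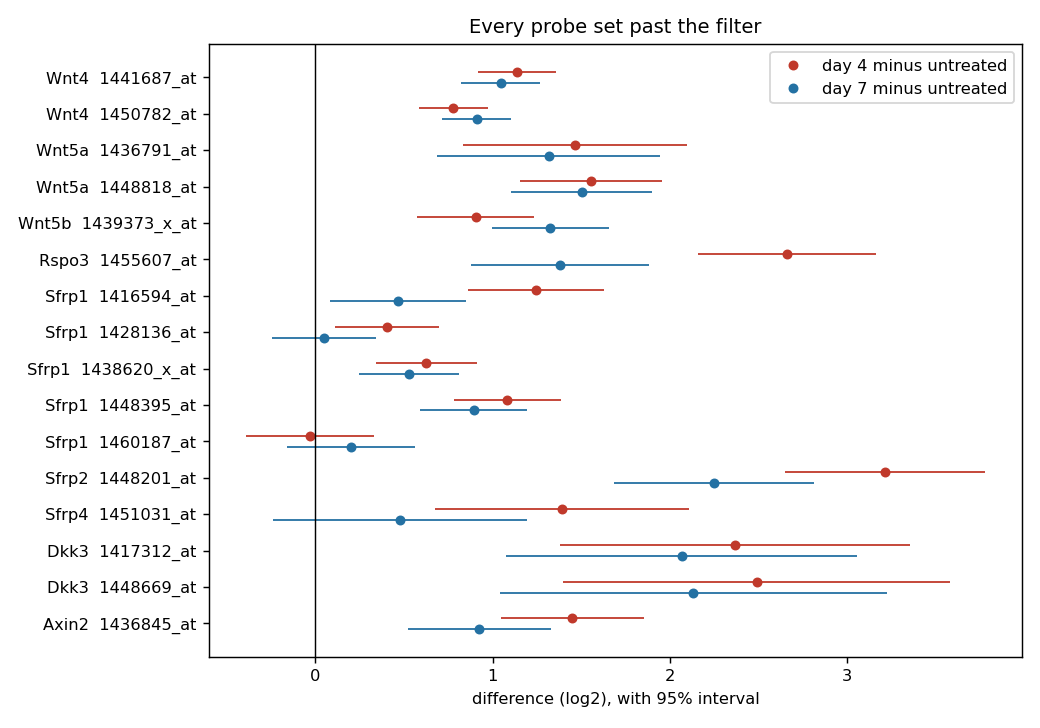
Difference from untreated in log2 units (horizontal axis) with its 95% interval at day 4 and day 7 for each of the 16 member probe sets past the filter, named at the left. Probe sets of Wnt4, Wnt5a and Dkk3 lie close together, while the 5 of Sfrp1 run from -0.03 to 1.24 at day 4.

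Dkk3, a divergent member of the Dickkopf family whose effect on WNT signalling varies between tissues, rose strongly with a wide spread. Dkk3 read 3.85, 4.645 and 4.998 in untreated, 6.95, 6.72 and 7.29 at day 4, and 6.36, 5.74 and 7.78 at day 7. Untreated arrays were lowest throughout, and day 7 replicate 3 was the highest of all 9. The rise was 5.61-fold at day 4 (difference 2.49, SE 0.48, adjusted p 0.00177) and 4.38-fold at day 7 (2.13, SE 0.48, adjusted p 0.00533; 1.55 without day 7 replicate 3, adjusted p 0.00801). Its other probe set was below the detection level on all untreated arrays, so its rise is at least 3.17-fold at day 4 and at least 2.57-fold at day 7. Day 7 replicate 3 was again high there (6.59 against 4.75 and 4.76).

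Wif1, a secreted protein that binds WNT ligands directly, was read by 1 probe set and did not pass the filter. It stood at the lowest value of 2.27 on 8 arrays and at 7.06 on day 7 replicate 3, so the signal came from 1 array and no group level is given. On that array the inhibitor genes Sost and Frzb read 6.77 and 4.55, against at most 3.49 and 2.63 on the other 8. The genes at 6 or above on day 7 replicate 3 and below 4 on all others numbered 6: Wif1, Sost, the smooth muscle gene Cnn1, Lmcd1, Sh3bgr and Tbx20. The pericyte and smooth muscle list also read highest there, at 8.87 against 8.18 and 8.25 in the other day 7 arrays; its part in the Wif1 and Dkk3 readings was not tested. Day 4 replicate 1 likewise had 6 genes of this kind, and none is a WNT gene.

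Axin2, the feedback scaffold, was higher on both days. The array values of Axin2 were 5.55, 4.84 and 5.40 in untreated, 6.68, 6.58 and 6.88 at day 4, and 6.32, 6.15 and 6.09 at day 7, and the 3 groups did not overlap. It rose 2.73-fold at day 4 (difference 1.45, SE 0.18, adjusted p 1.3e-04) and was 1.90-fold above untreated at day 7 (0.92, SE 0.18, adjusted p 0.00232). The day 7 minus day 4 difference was -0.53 (95% interval -0.93 to -0.13, adjusted p 0.055). It was called without untreated replicate 1 (adjusted p 0.043) or 2 (0.00962), arrays that enter only the shared spread. It was also called with array weights (0.0138) and with the filter at 6 (0.0461), but not without a filter (0.137). The other Axin2 probe set stayed at the lowest value on all arrays.

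Between day 4 and day 7, 2 of the 9 genes fell, Rspo3 and Sfrp2, and 0 rose, where 17.6% and 9.78% of all genes tested were called lower and higher (27.3% either way). Day 7 arrays lay wholly above day 4 arrays for 2 genes, Wnt4 and Wnt5b, and wholly below for 5, where this held for 17.9% and 33.8% of all genes. At an unadjusted p under 0.05, Axin2, Sfrp1 and Sfrp4 also lay lower (p 0.0156, 0.0213 and 0.0178) and Wnt5b higher (p 0.0169). For Sfrp1 this was read on 1428136_at; its probe set 1416594_at was called lower, as given above.

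**Figure D3:**
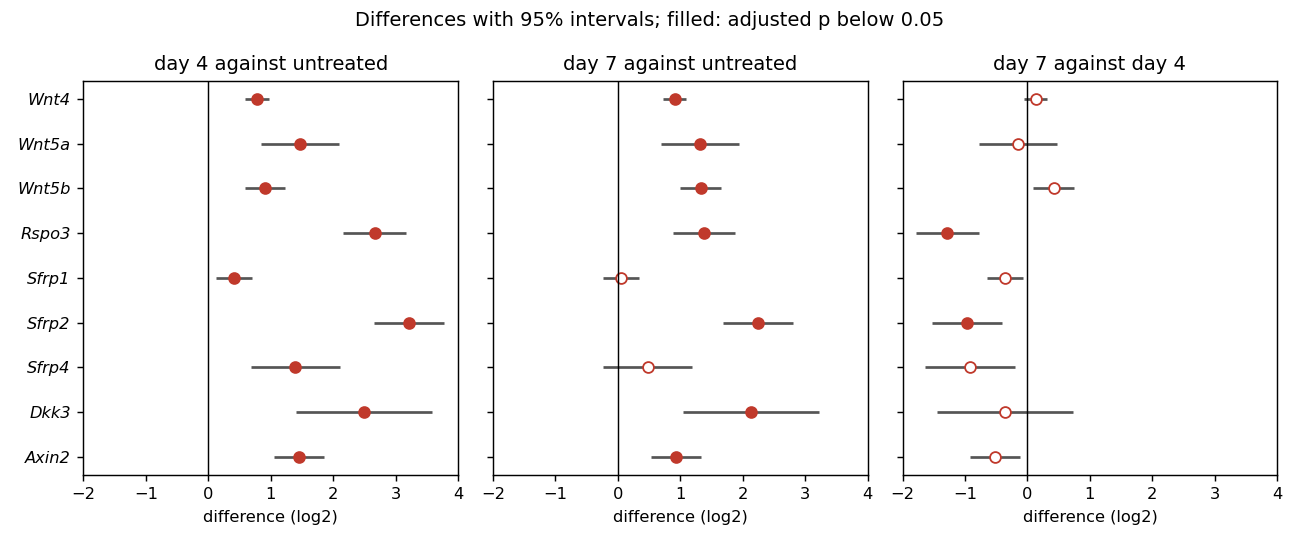
Differences in log2 units (horizontal axis) of the 9 tested genes in the 3 comparisons, with 95% intervals as lines; filled points have an adjusted p below 0.05 over all genes. All 9 points are filled at day 4, 7 at day 7 and 2, for Rspo3 and Sfrp2, between the days.

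All 13 fibroblast markers rose at day 4 (median 1.27) and 12 at day 7 (median 0.91), where 41.8% and 32.1% of all genes did. Between the days 3 of them fell, where 17.6% of all genes did. Of the 5 mesothelial markers 4 rose at both times, with medians of 1.21 and 2.01; the part of either list in the differences was not tested. The differences were also taken relative to the mean of the fibroblast markers on each array. On that scale 3 genes were higher at day 4, where 1.82% of all genes were: Sfrp2 by 1.82, Rspo3 by 1.27 and Dkk3 by 1.10 (adjusted p 1.2e-07, 9.9e-05 and 0.00464). For Rspo3, below the detection level in untreated, the difference on this scale is at least 0.15 by its bound. Sfrp1 and Wnt4 were lower, at -0.99 and -0.61 (adjusted p 0.00102 and 0.0321), where 79.9% of all genes were. Axin2, Wnt5a and Sfrp4 lay at 0.06, 0.07 and 0.00, (adjusted p 0.852, 0.808 and 0.996), and Wnt5b at -0.49 (adjusted p 0.108). At day 7 Sfrp2 and Dkk3 stayed higher (1.29 and 1.17, adjusted p 6.8e-05 and 0.00379), where 2.72% of all genes did. Rspo3 was at 0.42 (adjusted p 0.170), and at least -0.70 by its bound. Sfrp1 was lower by -0.91 (adjusted p 0.00318), where 69.1% of all genes were lower.

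Of the 13 general epithelial markers, 7 rose and 1 fell at day 4, where 41.8% and 21.4% of all genes did. At day 7, 5 rose and 4 fell, where 32.1% and 22% of all genes did. Relative to the mean of these markers, 8 of the 9 genes were higher at day 4 and 7 at day 7, where 21% and 27.6% of all genes were. Sfrp1 at day 4 was not (0.12, adjusted p 0.580), and 0 of the 9 were lower, where 25.5% and 13.8% of all genes were. Relative to the mean of 4 stromal lists (general epithelium, fibroblast, endothelium, and pericyte and smooth muscle), 6 were higher at day 4 and 2, Sfrp2 and Dkk3, at day 7, where 11% and 2.3% of all genes were. Lower on that scale were 0 of the 9 at day 4 and Sfrp1 and Sfrp4 at day 7 (-1.08 and -0.66), where 46.1% and 82.8% of all genes were. Sfrp2 and Dkk3 were called higher than untreated on both days under each of these scales. No scale was set on the endothelial list alone, which read 4.90 in untreated and 7.54 at day 7, or on the mesothelial list alone. The ratio of 3-prime to 5-prime signal of the Actb control probe sets, a sign of RNA quality, also moved, and was 2.28 ± 0.15 before irradiation, 3.13 ± 0.17 on day 4 and 2.51 ± 0.21 on day 7 (log2, SD, n = 3). Its part in the differences was not tested.

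**Figure D4:**
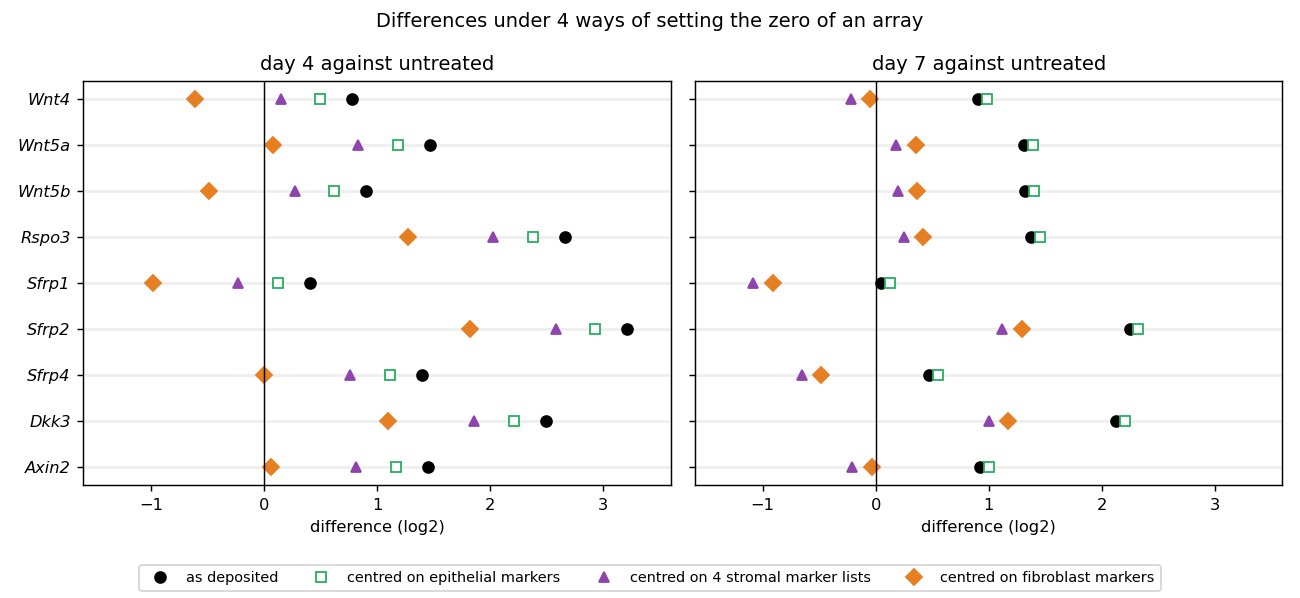
Log2 differences from untreated (horizontal axis) at day 4 and day 7 for the 9 tested genes, as deposited and after setting each array to the mean of its epithelial, fibroblast or 4 stromal marker lists. Sfrp2, Dkk3, Rspo3 and Wnt5a stay to the right of 0 under all 4 scales, while Wnt4, Wnt5b and Sfrp1 cross 0 on the fibroblast scale at day 4. Rspo3 and Wnt5b were below the detection level on all untreated arrays, so the place of their points is uncertain.

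Of 79 other genes of the pathway, 47 were tested; 27 (57.4%) rose and 6 (12.8%) fell at day 4, and 24 (51.1%) rose and 5 (10.6%) fell at day 7, where 41.8%, 21.4%, 32.1% and 22% of all genes did. The 47 had medians of 0.56 and 0.39, which became -0.83 and -0.57 relative to fibroblast markers and -0.07 and -0.74 relative to 4 stromal lists. Of the 16 other ligand genes, 3 passed the filter, and 1 of them (33.3%) was called higher on both days. This was Wnt9a, which rose by 1.55 at day 4 and 1.54 at day 7 (SE 0.23, adjusted p 3.7e-04 and 6.1e-04). The other 2 were not called on either day. Rspo1, the other R-spondin gene tested, rose by 1.54 and 1.89 (SE 0.22, adjusted p 3.2e-04 and 2.0e-04). Its difference between the days was 0.35 (adjusted p 0.271), where Rspo3 fell. Dkk2, an inhibitor that binds LRP6, rose by 2.41 and 1.68 (SE 0.27, adjusted p 7.7e-05 and 9.3e-04), and Sostdc1, an inhibitor of WNT and BMP signals, was lower at day 7 by -1.34 (SE 0.29, adjusted p 0.00395). Wls, the carrier that brings WNT proteins to the cell surface, rose by 0.49 and 0.77 (adjusted p 0.00181 and 2.5e-04).

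Of 17 receptor and co-receptor genes tested, 14 rose and 3 fell at day 4, and 13 rose and 2 fell at day 7, beside the same 41.8% and 21.4% of all genes at day 4 and 32.1% and 22% at day 7. Their medians of 1.18 and 0.82 turned to -0.21 and -0.13 relative to fibroblast markers, and to 0.54 and -0.31 relative to 4 stromal lists. Fzd3, a Frizzled receptor, rose by 1.65 (SE 0.11, adjusted p 5.4e-06) at day 4 and 1.36 at day 7. Ror1 and Ror2, receptors of the WNT5A type of signal, rose by 1.25 and 1.28 at day 4 and by 1.13 and 0.97 at day 7. Rnf43, a ligase that removes Frizzled, rose by 1.18 at day 4 and fell by 0.55 from day 4 to day 7 (adjusted p 0.0139). The 3 that fell at day 4, named after their values were seen, were its relative Znrf3 (-1.16), Fzd5 (-0.54) and the Dickkopf receptor gene Kremen1 (-0.55). Fzd5 then rose by 0.83 from day 4 to day 7 (adjusted p 0.00792) and Fzd6 fell by 0.58 (adjusted p 0.0351).

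Of 14 genes of the intracellular machinery tested, 5 rose and 1 fell at day 4, with a median of 0.16 (-0.12 relative to epithelial, -1.23 to fibroblast and -0.47 to 4 stromal lists), and 2 rose and 1 fell at day 7. The shares that rose, 35.7% and 14.3%, were below those of all genes, 41.8% and 32.1%. The transcription factor genes Tcf7l2 and Tcf7l1 rose by 0.84 and 0.66 at day 4, and Bcl9l, a beta-catenin cofactor gene, by 0.77. Ctnnb1, which encodes beta-catenin, read 12.55, 12.70 and 12.68 as group means (adjusted p 0.144 at day 4 and 0.195 at day 7); it was added after its values were seen. At day 7 Axin1, the constitutive relative of Axin2, was lower by -0.42 (adjusted p 0.00511) and Apc, its partner in beta-catenin breakdown, higher by 0.25 (adjusted p 0.0319).

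The other targets and feedback genes were mixed: 4 of 9 rose and 2 fell at day 4 (median 0.38, and -1.01 and -0.26 relative to fibroblast and 4 stromal lists), shares of 44.4% and 22.2% that are near the 41.8% and 21.4% of all genes. At day 7, 5 rose and 1 fell (median 0.59, and -0.37 and -0.54 on those scales). These shares were 55.6% and 11.1%, where 32.1% and 22% of all genes rose and fell. Tnfrsf19, a receptor gene induced by beta-catenin, rose by 2.01 (SE 0.27, adjusted p 2.1e-04) and Apcdd1, a membrane inhibitor gene, by 0.94 (SE 0.14, adjusted p 4.5e-04), beside 1.45 for Axin2. Lef1, a nuclear partner of beta-catenin that is also strongly expressed in thymocytes, read 8.79, 8.58 and 8.90 in untreated and was below the detection level on all day 4 arrays, at least 27.03-fold lower (adjusted p 3.0e-08). Lef1 returned to 6.12, 6.31 and 6.16 at day 7, still 5.88-fold below untreated; the thymocyte list, given above, moved the same way, and its part was not tested. Myc, which many signals induce, fell by 0.69 at day 4 (adjusted p 0.00407), then rose by 0.94 to day 7 (adjusted p 0.00324), where it differed from untreated by 0.25 (adjusted p 0.198). The cell cycle gene Ccnd1 rose by 0.76 from day 4 to day 7 (adjusted p 8.8e-04). The part of thymocytes in the Myc and Ccnd1 readings was not tested either.

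**Figure D5:**
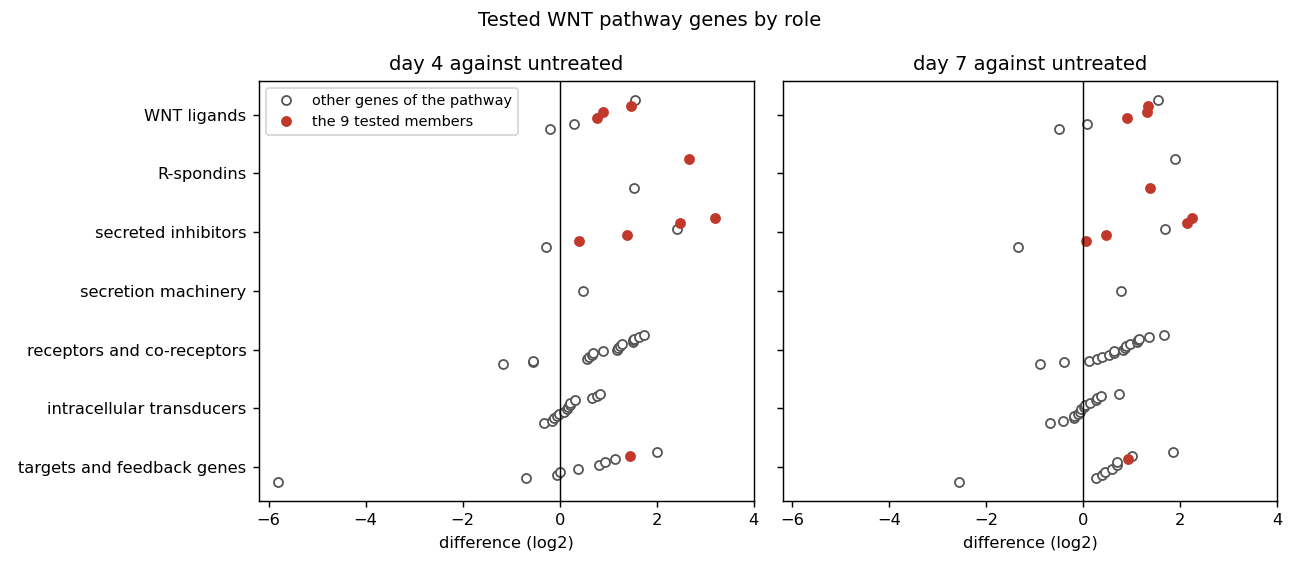
Log2 differences from untreated (horizontal axis) at day 4 and day 7 of the tested WNT pathway genes, 1 point per gene, by role; filled points are the 9 tested members. On this scale receptors lie mostly to the right of 0 (medians 1.18 and 0.82; -0.21 and -0.13 relative to fibroblast markers), transducers close to 0, and the point at the far left is Lef1 (-5.82 at day 4).

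By the root mean square difference between gene-centred profiles over the 9 arrays, the genes nearest to Sfrp2 were Srpx and Vegfd (0.18 and 0.19 log2 units). Nearest to Sfrp4 was the fibroblast marker Mfap5, a microfibril gene, at 0.17, and nearest to Rspo3 was Negr1 at 0.24. For Wnt4 they were Pxdc1 and Ipo4 (0.07 and 0.08), for Wnt5a B3gnt9 and Csrp2 (0.18 and 0.19), and for Axin2 Sema4c and Hs3st6 (0.13 and 0.15). For Dkk3 they were Kcnt2 and Mamdc2, at 0.32 and 0.33. The distance also depends on how much a gene varies, so it is not comparable between members.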

How the data were processed

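The deposited table held 1 value per probe set and array on the log2 scale, made by the authors with GCRMA, per the submitters' processing notes; its version is not given in the sources here, and the values' range gave the log base. Between 26.1% and 27.2% of the values of an array lay at the lowest value of 2.27, where differences are compressed. Of 45101 probe sets, 64 were controls, 34945 had 1 gene symbol, 932 several and 9160 none; 34741 matched the RefSeq gene table (GRCm38.p6) by gene identifier, which changed 0 symbols. Each gene was read by its probe set with the highest mean over 9 arrays, and genes at 4 or above on at least 3 arrays were tested (10937; 7256 were dimmer). All arrays entered 1 model with the group as its term in limma 3.58.1 (lmFit, eBayes; R 4.3.3), with Benjamini-Hochberg adjustment over all genes at 0.05; every adjusted p comes from such a limma fit, and the procedure was tested on simulated data. Below 4 on every array of a group, a fold is a bound against 4. Precision is limited by 3 arrays per group.

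The members and gene lists were chosen with earlier results of these data known. Members are all described; of the other pathway genes, up to 3 per role and comparison with the smallest adjusted p past the threshold were named, and for each member the 2 genes of nearest profile were found. The labels do not say whether replicate numbers pair the samples. Correlations of deviations from group means ran from -0.12 to 0.18 for same-numbered arrays and from -0.29 to 0.21 for differently numbered ones. These ranges cannot decide whether the samples were paired. Figures were drawn with matplotlib 3.10.9.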

Additional observations from a re-analysis of the deposited data

Results flagged for a closer look

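The change from untreated differed between day 4 and day 7 for Rspo3 and Sfrp2 by the limma test of the difference itself. Rspo3 stood -1.28 lower at day 7 than at day 4 (log2, all day 7 arrays below all day 4 arrays), and Sfrp2 -0.97 lower, again without overlap. The Sfrp2 difference was -0.61 relative to epithelial and -0.53 relative to fibroblast markers (adjusted p 0.107 and 0.170), and its call was lost without day 4 replicate 1 or 3, or day 7 replicate 2 or 3.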

How the results depend on the processing

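Of 555 comparisons of a single gene with its main value over 21 settings, 483 kept direction and call, 25 gained and 22 lost the call, and 25 changed sign. Several settings, such as another filter, the intensity trend or leaving out an array of the third group, cannot change a difference, only its call. The count that kept direction is therefore no measure of robustness. Leaving out 1 array at a time gave 8 to 9 genes higher and 0 lower at day 4, 7 to 8 higher and 0 lower at day 7, and 0 to 1 higher and 1 to 4 lower between the days. Of all 10937 genes, 4096 to 4604 were higher and 1988 to 2372 lower at day 4 in these fits. At day 7 the ranges were 2845 to 3696 and 1908 to 2463, and between the days 750 to 1214 and 1010 to 2273. Whether same-numbered samples were paired is not stated. With the replicate number as a block, 9 genes were higher at day 4, 7 at day 7 and 3 lower between the days (Axin2 added, adjusted p 0.0447). Of all 10937 genes, 4407, 3287 and 1665 were called that way in the same order.

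Between the days, where 2 genes were lower and 0 higher, the count lower was 1 without the filter (Rspo3) and with the mean of all probe sets (Sfrp2, adjusted p 0.0241; Rspo3 and Wnt5b were then not tested), 4 with an intensity trend, 5 with array weights, 1 relative to epithelial or fibroblast markers and 7 relative to 4 stromal lists. Of all genes, 1280 of 18193 were lower without the filter and 1673 of 9886 with the mean of all probe sets. Of 10937, 1989 were lower with the trend, 2992 with array weights and 7099 relative to 4 stromal lists. Relative to epithelial and fibroblast markers 387 and 229 were lower. The count higher was 1 with array weights, quantile normalization, and centring on all tested genes, epithelial or fibroblast markers. In that order 1475, 1351, 1349, 1753 and 1323 of 10937 genes were higher. Relative to fibroblast markers 3 genes were higher and 2 lower at day 4 (1.82% and 79.9% of all genes), and 2 higher and 1 lower at day 7 (2.72% and 69.1%). Relative to 4 stromal lists 6 were higher at day 4 (11% of all genes), and 2 higher and 2 lower at day 7 (2.3% and 82.8%). Of all genes called, 66.1% were higher at day 4, 59.3% at day 7 and 35.8% between the days; relative to fibroblast markers these were 2.23%, 3.78% and 85.2%, to 4 stromal lists 19.3%, 2.71% and 5.55%, and to epithelial markers 45.1%, 66.8% and 81.9%. The median of all genes was then -1.19, -0.87 and 0.33, -0.44, -1.04 and -0.60, and -0.09, 0.17 and 0.26.

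Signs changed as follows; the cause was not tested. Relative to fibroblast markers, day 4 gave Sfrp1 -0.99, Wnt4 -0.61 and Wnt5b -0.49, day 7 gave Axin2 -0.034, Sfrp1 -0.91, Sfrp4 -0.48 and Wnt4 -0.048, and day 7 against day 4 gave Dkk3 0.074, Sfrp1 0.079 and Wnt5a 0.28. Relative to 4 stromal lists, day 4 gave Sfrp1 -0.23, day 7 gave Axin2 -0.21, Sfrp1 -1.08, Sfrp4 -0.66 and Wnt4 -0.22, and day 7 against day 4 gave Wnt4 -0.37 and Wnt5b -0.077. Relative to epithelial markers, day 7 against day 4 gave Dkk3 0.0012, Sfrp1 0.0061 and Wnt5a 0.21. With 1 array left out, Sfrp1 at day 7 ran from -0.06 (without untreated replicate 3; -0.012 without day 7 replicate 1) to 0.16. Between the days Wnt5a ran from -0.30 to 0.11 (without day 7 replicate 1; 0.04 without day 4 replicate 3), and Dkk3 from -0.93 to 0.083 (without day 7 replicate 2). Signal near the lowest value limits Wif1, Wnt5b and untreated Rspo3.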
